A study of Rattus norvegicus with 12 samples.

Results

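Calcrl, the receptor activity-modifying protein genes Ramp1, Ramp2 and Ramp3, and the ligand gene Adm were followed across the cell classes of the rat liver. They are 5 of the 32883 features of the count tables. They were chosen by name as the parts of one receptor system, with their levels by cell class in these data already known. The levels by class are therefore a description and carry no test, and tests are given only for the contrast between strains.

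The liver cells came from healthy male rats of 2 inbred strains, Dark Agouti (DA) and Lewis (LEW), with no treatment named in the labels. Total liver homogenate (TLH) was digested with collagenase and sequenced as whole cells from 2 DA and 2 LEW rats, each library from 1 rat. Nuclei were extracted from snap-frozen liver of 2 additional DA and 2 additional LEW rats. A name such as DA1 thus stands for different rats in TLH and in nuclei. For immune cells, 1 library of each strain was enriched. The study describes removal of parenchymal cells by differential centrifugation, additional washing and removal of red blood cells. A pair of Visium sections, A and B, came from the livers of 2 Wistar rats. The series text gives an age of 8 to 10 weeks, while the names given to the TLH libraries hold 10 weeks for DA and 13 weeks for LEW, and those of the immune-enriched libraries hold 9 weeks. The study's methods give 1 older, matched age range. Strain and age can thus not be told apart in the TLH libraries, and no age was attached to the nuclei.

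Calcrl encodes the calcitonin receptor-like receptor, a G protein-coupled receptor that reaches the cell surface and binds its ligands only together with a RAMP. With RAMP1 it forms the receptor for the neuropeptide CGRP, and with RAMP2 or RAMP3 it forms receptors for adrenomedullin, the peptide encoded by Adm. Adrenomedullin signalling through RAMP2 is known for its role in the development and barrier function of blood vessels. Hepatic stellate cells, the vitamin A-storing pericytes of the sinusoid, are the main mesenchymal cells of the healthy liver. Which RAMP a cell makes thus shifts which peptide its Calcrl prefers.

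The promoters of Calcrl and Ramp1 are shown because both genes were found in the mesenchymal gate below. Of the 4 members with an entry, these also differ most in base composition. Sequences are from RefSeq on GRCr8, a later assembly than the one the reads were counted on, upstream of the gene start, written 5′ to 3′ on the strand of the gene. The Calcrl stretch lies at chr3:89932617-89932866 on the minus strand, and the Ramp1 stretch at chr9:99212866-99213030 on the plus strand, where it was cut at the outermost gene start. Capitals mark the GC box CCGCCC, the reverse complement of GGGCGG.
Calcrl: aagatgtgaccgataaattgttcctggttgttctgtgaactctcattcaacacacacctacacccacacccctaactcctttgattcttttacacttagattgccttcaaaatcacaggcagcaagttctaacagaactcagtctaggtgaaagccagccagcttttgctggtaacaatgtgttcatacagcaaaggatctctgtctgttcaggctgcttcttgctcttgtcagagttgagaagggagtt
Ramp1: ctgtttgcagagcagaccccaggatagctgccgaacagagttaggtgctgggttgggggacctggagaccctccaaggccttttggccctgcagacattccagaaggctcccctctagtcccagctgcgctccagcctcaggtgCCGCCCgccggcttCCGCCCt

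Base composition was read over the first 250 bases of each entry, which for Calcrl are the bases printed and for Ramp1 run past the printed stretch beyond the outermost gene start. Those of Calcrl had a GC content of 43.6% and 1 CpG, against a median of 51.2% and 5 CpGs over all 33469 promoters of that table. Those of Ramp1 had a GC content of 70.0%, 20 CpGs and 3 GC boxes. Ramp3 had 61.6%, 13 CpGs and 2 GC boxes, and Adm 58.8%, 6 CpGs and 1 GC box. Searched on both strands, the GC box GGGCGG was found in 30.5% of all promoters, the TATA box TATAAA in 12.9%, the ETS core CCGGAA in 12.6% and the E-box CACGTG in 5.59%. The Calcrl window held none of these letters, and the windows of the other members held only the GC boxes. No sequence was printed for Ramp2, which had no entry.

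Barcodes were placed in classes by counting detected markers from fixed lists that hold none of the 5 members. The endothelial gate took at least 4 of 19 measured markers, the mesenchymal gate at least 5 of 19 and the Kupffer gate at least 4 of 11, and barcodes that met more than 1 list were left out. The endothelial gate gave 2196 TLH barcodes, 537 nuclei and 475 immune-enriched barcodes, and the mesenchymal gate gave 1118, 315 and 24. The gates were read on genes of each cell type. Lyve1, a hyaluronan receptor of sinusoidal endothelium and itself 1 of the 19 gate markers, had a UMI in 62.7% of endothelial-gated TLH barcodes and 69.6% of endothelial-gated nuclei. Vwf, of large vessels and not in the list, had one in 0.592% and 2.98%. The list holds mostly sinusoidal genes, so these shares describe what the gate took and are no independent check of it. The leukocyte gene Ptprc was found in 0.501% and 0.372% of them. In the mesenchymal gate, Lrat, which esterifies retinol, was found in 10.0% of TLH barcodes and 27.3% of nuclei, and Col1a1 in 2.77% and 5.40%. Lrat and Col1a1 are themselves markers of that gate, so these shares are no independent check of it either. Endothelial-gated TLH barcodes carried a median of 11 to 12 of 12 hepatocyte markers, and endothelial-gated nuclei 9 to 11. Hepatocyte RNA was thus present in every gate, so shares of hepatocyte-gated barcodes are given for comparison.

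Shares of barcodes with at least 1 UMI are given with every barcode thinned to 1000 UMIs, since the gates differ in depth. The median UMIs before thinning ran from 1670 to 2324 in endothelial-gated, 1705 to 2448 in mesenchymal-gated and 1754 to 2447 in hepatocyte-gated barcodes of the TLH libraries. In nuclei they ran from 1271 to 1516, 1274 to 1693 and 1466 to 2040. Errors are the SD over libraries, and intervals on single libraries are exact 95% binomial or Poisson intervals that cover counting error only.

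Calcrl, the receptor itself, was held by both mesenchymal and endothelial cells, with the higher share in mesenchymal cells of TLH. In TLH, it had a UMI in 11.6% and 12.6% of mesenchymal-gated barcodes of the DA rats and in 11.9% and 12.5% of those of the LEW rats. In the endothelial gate the shares were 7.37% and 6.79% for DA and 7.42% and 8.26% for LEW. Every rat thus had a higher share in the mesenchymal than in the endothelial gate, and the ranges of the libraries did not overlap. The means were 12.1% ± 0.48 and 7.46% ± 0.61 (SD, n = 4), or 21.3% and 15.97% without thinning. As shares of all UMIs of the class, in CPM, the levels were 116 ± 10.6 and 80.7 ± 5.46 CPM. Kupffer-gated barcodes, the resident macrophages, held Calcrl in 4.15% ± 0.90 of cases, from 2.95% to 5.13%, and hepatocyte-gated barcodes in 0.871% ± 0.38. The mesenchymal, endothelial and Kupffer gates each had a range apart from that of the class next below, which for Kupffer cells was the other myeloid barcodes with 1.27% ± 1.46. Other myeloid, hepatocyte-gated and NK-gated barcodes overlapped.

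Nuclei gave the same classes at higher shares. Calcrl had a UMI in 35.6% and 32.1% of mesenchymal-gated nuclei of the DA rats and 39.2% and 28.1% of the LEW rats. Endothelial-gated nuclei had it in 20.2% and 29.7% for DA and in 25.5% and 32.4% for LEW. These ranges overlapped, and LEW2 had the higher share in endothelial-gated nuclei, so the order of both gates was not the same in every rat. The means were 33.8% ± 4.8 and 26.9% ± 5.3 (SD, n = 4; 45.5% and 36.2% without thinning), with 6.91% ± 5.1 in Kupffer-gated and 0.478% ± 0.070 in hepatocyte-gated nuclei. Among nuclei with at least 2000 UMIs, thinned to that depth, the means were lower, at 20.8% and 16.7%. In the immune-enriched libraries, 54 of 192 endothelial-gated barcodes held Calcrl in DA, a share of 28.1% (95% interval 21.9% to 35.1%), and 64 of 283 in LEW, a share of 22.6% (17.9% to 27.9%). Their median depth was 2703 and 3186 UMIs against 2347 and 2203 in hepatocyte-gated barcodes, of which 1 of 1131 held Calcrl. The immune-enriched mesenchymal gate had Calcrl in 4 of 8 DA and 1 of 16 LEW barcodes, too few to be placed above or below the endothelial gate. No Calcrl was found in 142 other myeloid barcodes, which allows a share of up to 2.11% of barcodes with a UMI.

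Ramp2, the RAMP of vascular adrenomedullin receptors, was found mainly in endothelial cells, with low shares in the other gates. In endothelial-gated TLH barcodes, it had a UMI in 15.9% and 16.6% for DA and in 34.3% and 27.4% for LEW. Both LEW rats were above both DA rats. The mean was 23.5% ± 8.9 (SD, n = 4; 43.9% without thinning), against 1.19% ± 0.42 in Kupffer-gated, 1.17% ± 1.22 in mesenchymal-gated and 0.475% ± 0.18 in hepatocyte-gated barcodes. None of 149 other myeloid barcodes held it, which allows up to 2.01%. In endothelial-gated nuclei the shares were 29.0% and 26.5% for DA and 30.9% and 20.3% for LEW, a mean of 26.7% ± 4.6 (16.6% among nuclei with at least 2000 UMIs, thinned to that depth), and the highest mean of another class was 0.368% in Kupffer-gated nuclei. The mesenchymal-gated nuclei, with more Calcrl than the endothelial ones on average, held Ramp2 in 0.260% and hepatocyte-gated nuclei in 0.271%. The immune-enriched endothelial gate had it in 100 of 192 DA barcodes, or 52.1% (44.8% to 59.3%), and in 155 of 283 LEW barcodes, or 54.8% (48.8% to 60.7%), against 0 of 111 and 1 of 1020 hepatocyte-gated barcodes. With barcodes of several lists placed in one, Ramp2 was in 1.46% to 5.51% of the mesenchymal barcodes of a TLH library. In the immune-enriched libraries of DA and LEW it was then in 5.13% and 8.53% of Kupffer barcodes and in 4.17% and 14.3% of 24 and 28 mesenchymal barcodes. How low its share was outside endothelium thus depended on how such barcodes were treated.

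Ramp1, the RAMP of the CGRP receptor, went the other way. In mesenchymal-gated TLH barcodes it had a UMI in 24.8% and 14.7% for DA and in 20.3% and 14.3% for LEW, which overlapped between strains. The mean was 18.5% ± 5.0 (SD, n = 4; 32.7% without thinning). Endothelial-gated barcodes had 2.41% ± 1.42, which overlapped with the 1.36% ± 0.40 of hepatocyte-gated barcodes. In nuclei the contrast was wider. Mesenchymal-gated nuclei held Ramp1 in 13.6% and 18.5% for DA and in 22.8% and 19.8% for LEW, a mean of 18.7% ± 3.8. The 17, 17, 30 and 42 of these nuclei with at least 2000 UMIs, thinned to that depth, had lower shares of 17.6%, 5.88%, 3.33% and 11.9%, a mean of 9.69%, so neither the level nor an order of the strains held across depths. At 1000 UMIs, 1 of 537 endothelial-gated nuclei held it, against a mean of 0.272% in hepatocyte-gated nuclei. Without thinning, the shares were 0% to 2.03% in endothelial-gated and 0.301% to 1.03% in hepatocyte-gated nuclei, which overlapped.

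Ramp1 was also held by leukocytes in which Calcrl was rare. In the immune-enriched libraries, T-gated barcodes held it in 29 of 94 for DA, or 30.9% (21.7% to 41.2%), and in 15 of 71 for LEW, or 21.1% (12.3% to 32.4%). Other myeloid barcodes held it in 12 of 77 for DA, or 15.6% (8.3% to 25.6%), and in 22 of 65 for LEW, or 33.8% (22.6% to 46.7%). Calcrl was found in 1.06% and 1.41% of the T-gated barcodes. Ramp1 was at 0 in 166 NK-gated barcodes, which allows up to 1.81%, in 114 B-gated barcodes, up to 2.63%, and in 1131 hepatocyte-gated barcodes, up to 0.265%. It was at 0 in 475 endothelial-gated barcodes as well, up to 0.632%, but in 2.63% of DA and 5.03% of LEW endothelial barcodes when those of several lists were placed in one. These classes differ in depth, with medians of 4078 and 4233 UMIs in T-gated and 4052 and 3372 in other myeloid barcodes, before all were thinned. In TLH, the 149 other myeloid barcodes held Ramp1 in 12 cases, from 2.38% to 21.4% of a library.

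**Figure D1:**
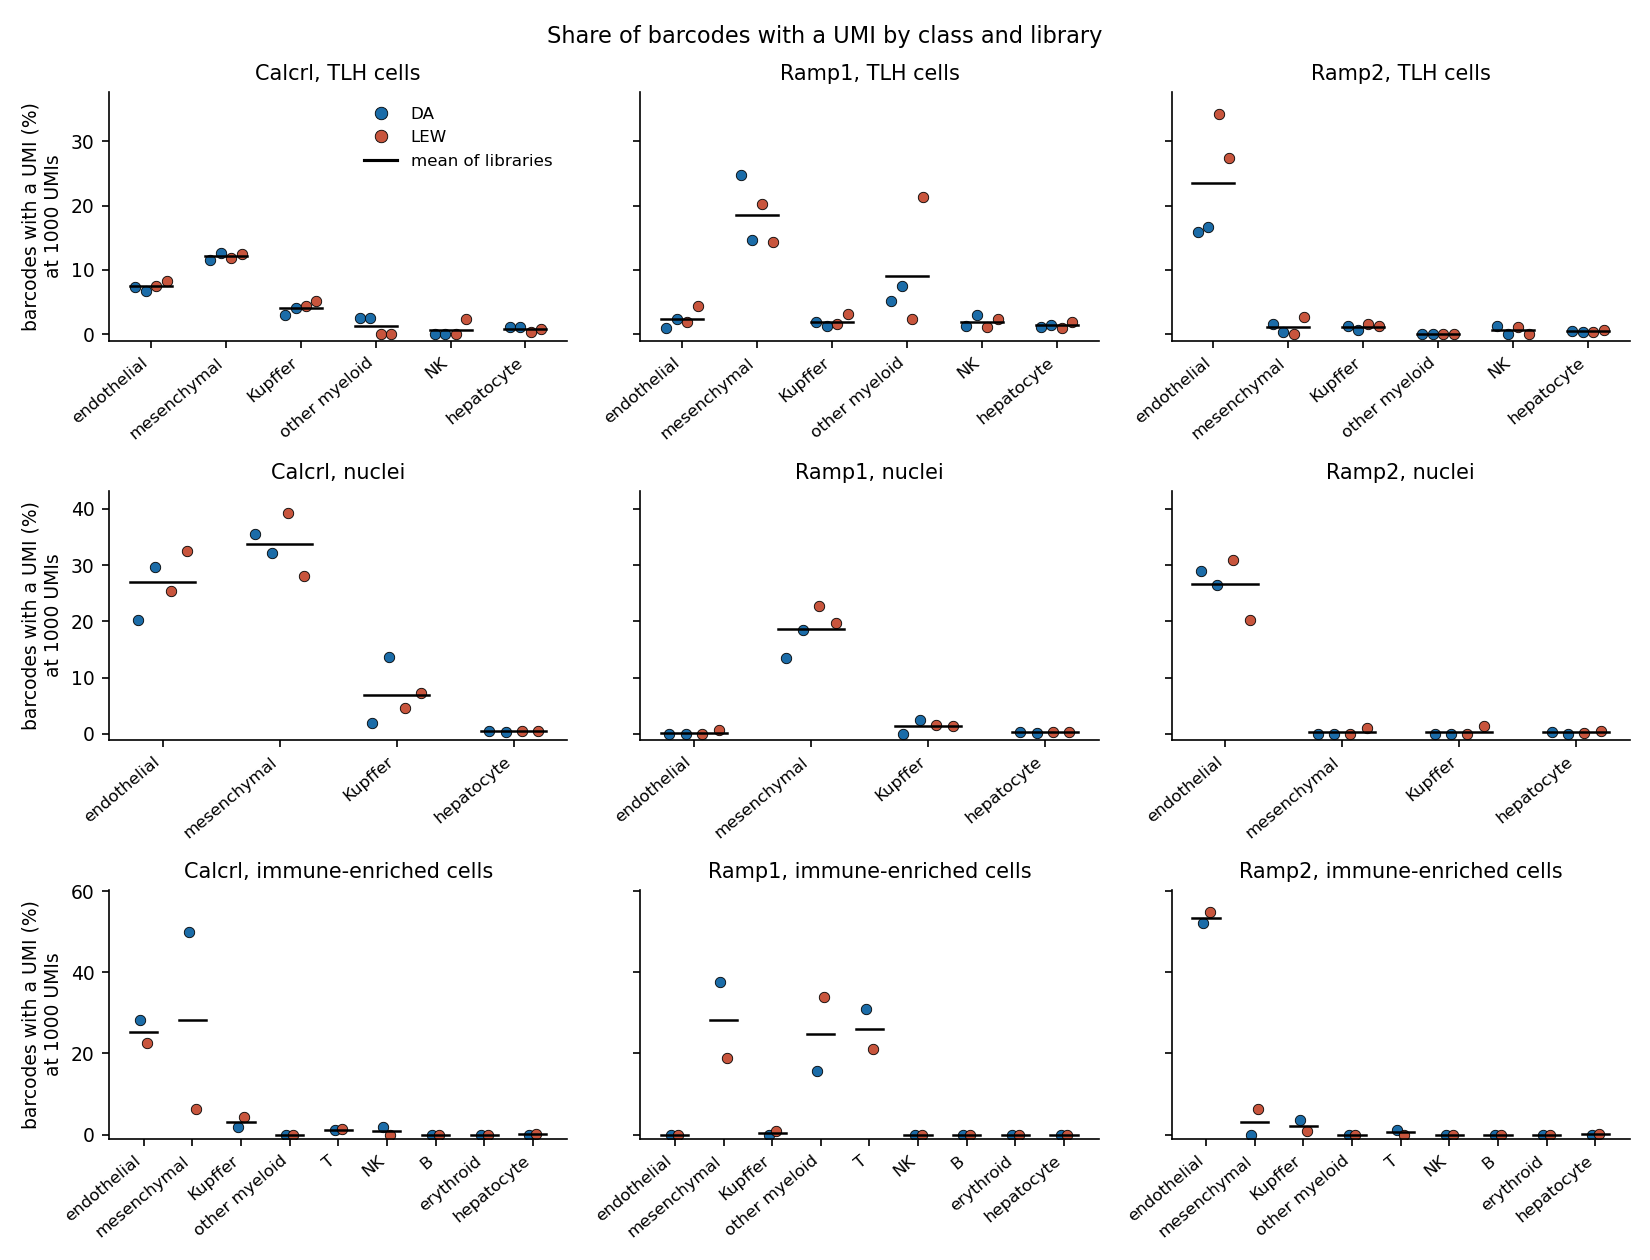
Share of barcodes with a UMI of Calcrl, Ramp1 and Ramp2 (columns, y axis in percent, thinned to 1000 UMIs) by gated class (x axis) in TLH cells, nuclei and immune-enriched cells (rows). Points are libraries, blue for DA and red for LEW, and bars are their means. Calcrl stands in the mesenchymal and the endothelial gate, Ramp1 in the mesenchymal gate and in the T and other myeloid gates of the immune-enriched libraries, and Ramp2 in the endothelial gate.

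Ramp3, the other adrenomedullin RAMP, was almost not detected. At 1000 UMIs it was at 0 in all 2196 endothelial-gated TLH barcodes, which allows up to 0.137%, in 537 nuclei, up to 0.559%, and in 475 immune-enriched barcodes, up to 0.632%. It was found in 1 barcode of each of the mesenchymal, Kupffer and hepatocyte gates in TLH and in 1 nucleus of each of the mesenchymal and hepatocyte gates, and in 1 immune-enriched barcode of each of the other myeloid, T and B gates. Ramp3 was thus not detectable in endothelial-gated barcodes at this depth.

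Adm, the ligand, was sparse and was found mainly in the mesenchymal and endothelial gates. In mesenchymal-gated TLH barcodes it had a UMI in 1.62% and 1.16% for DA and in 0.847% and 0% for LEW, from 10, 16, 1 and 2 UMIs in all before thinning. Endothelial-gated barcodes had 0.962% and 1.13% for DA and 0.218% and 0% for LEW, from 9, 15, 4 and 0 UMIs. The mean over hepatocyte-gated barcodes was 0.0461%, and 1 of 1970 Kupffer-gated barcodes and none of 265 Kupffer-gated nuclei held it, although both held Calcrl. In mesenchymal-gated nuclei the shares were 6.78% and 7.41% for DA and 2.53% and 1.04% for LEW, but these rest on 5, 8, 5 and 3 UMIs. Endothelial-gated nuclei held Adm in 2.42% and 2.58% for DA and in none for LEW. Hepatocyte-gated nuclei held it in 1 case, in LEW2, and hepatocyte-gated immune-enriched barcodes in none of 1131, which allows up to 0.265%. The immune-enriched endothelial gate had Adm in 6 of 192 DA and 2 of 283 LEW barcodes. At 1000 UMIs both DA rats were above both LEW rats in the mesenchymal and endothelial gates of TLH and nuclei. At 2000 UMIs they were so only in the endothelial gate of TLH, with 0.752% and 1.36% in DA against 0.655% and 0%, and in mesenchymal-gated nuclei the shares were 0% and 5.88% in DA against 6.67% and 4.76% in LEW. The counts were too low for the filter of the strain test, so no test is given and no strain order is read from them. The mesenchymal markers of the mesenchymal gate ran the same way, summing to 1.001% and 0.889% of UMIs in DA and 0.845% and 0.695% in LEW in TLH, and to 1.12% and 1.26% against 0.858% and 0.633% in nuclei. Their part in the Adm values was not tested.

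The RAMP UMIs of each class were then taken as 1 total, over all barcodes of a gate whether or not they held Calcrl. In endothelial-gated TLH barcodes, Ramp2 gave 94.2% and 88.7% of the 121 and 194 RAMP UMIs of the DA rats and 95.1% and 88.6% of the 206 and 88 of the LEW rats. In nuclei it gave 100% of the UMIs in 3 rats and 97.2% in LEW2, and in the immune-enriched libraries all of 181 and 272. In mesenchymal-gated TLH barcodes, Ramp1 gave 95.1% and 97.1% of 122 and 104 UMIs for DA and 100% and 90.3% of 28 and 31 for LEW. Mesenchymal-gated nuclei had 90.0%, 100%, 100% and 95.7% Ramp1, from only 10 to 23 UMIs a rat. The mesenchymal gate of the immune-enriched libraries held only 3 RAMP UMIs in DA and 7 in LEW, of which Ramp1 gave 100% and 85.7%. The means were 91.7% ± 3.5 Ramp2 in the endothelial and 95.6% ± 4.1 Ramp1 in the mesenchymal gate of TLH, and 99.3% ± 1.4 and 96.4% ± 4.7 in nuclei (SD, n = 4). In hepatocyte-gated TLH barcodes, which hold both genes at low shares, Ramp1 gave 74.0% ± 7.0. The RAMP UMIs of Kupffer-gated TLH barcodes, 60 in all, were 61.0% ± 8.4 Ramp1. Kupffer-gated nuclei and immune-enriched barcodes held only 5 and 4 RAMP UMIs, and in hepatocyte-gated nuclei Ramp1 gave 50.9% ± 9.1.

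**Figure D2:**
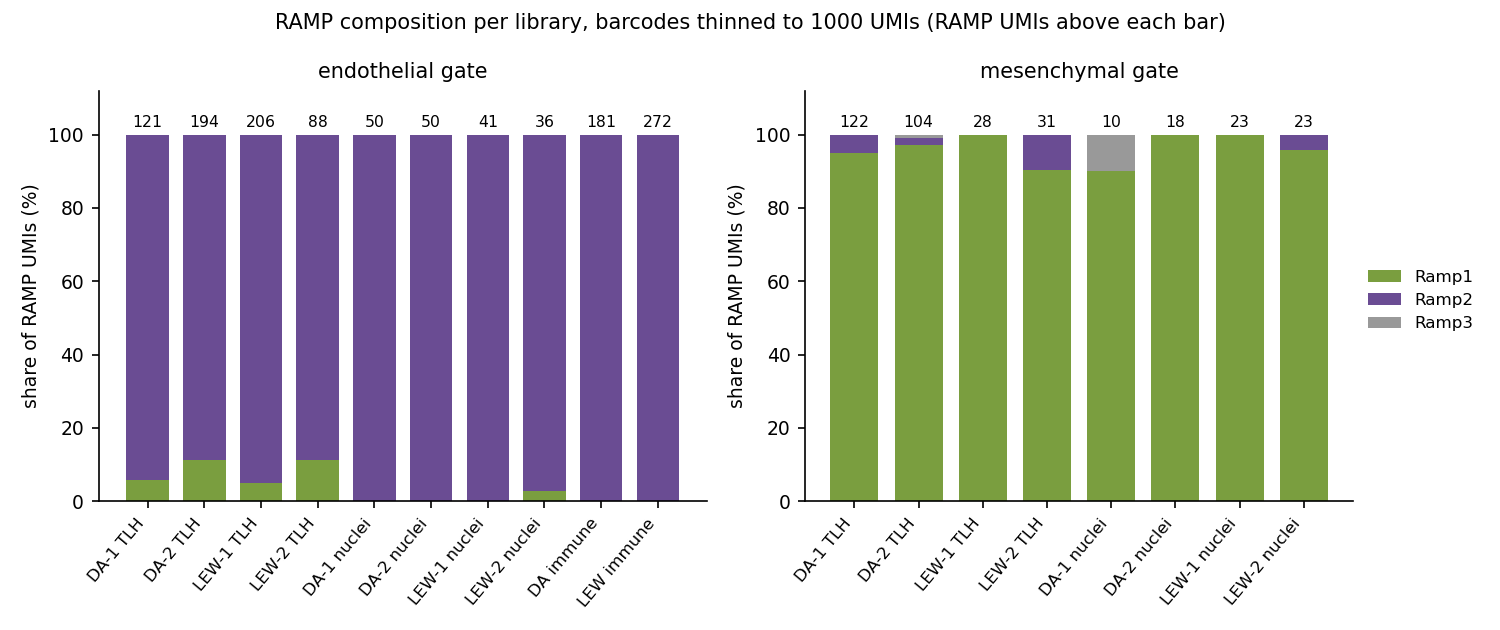
Share of RAMP UMIs from Ramp1, Ramp2 and Ramp3 (y axis, percent, stacked) by library (x axis) in the endothelial gate of all 10 libraries of cells and nuclei and in the mesenchymal gate of the 8 TLH and nuclei libraries, with the number of RAMP UMIs above each bar, thinned to 1000 UMIs per barcode. Ramp2 fills at least 88.6% of each endothelial bar shown and Ramp1 at least 90.0% of each mesenchymal bar shown.

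Within a class, the barcodes with Calcrl were compared with those without it. In mesenchymal-gated TLH barcodes, Ramp1 was found in 41.9% of barcodes with Calcrl against 22.6% without in DA1, 23.1% against 13.5% in DA2, 35.7% against 18.3% in LEW1 and 42.9% against 10.2% in LEW2. The share was higher with Calcrl in 4 of 4 rats, with means of 35.9% ± 9.1 and 16.1% ± 5.4 (SD, n = 4). In mesenchymal-gated nuclei it was higher in 4 of 4 rats again, at 28.6% ± 8.1 and 13.4% ± 2.4. The Kupffer and endothelial gates of TLH showed the same direction at lower shares and on few counts. Ramp1 was higher with Calcrl in 4 of 4 rats in Kupffer-gated barcodes, at 7.73% ± 3.4 and 1.75% ± 0.93. It was so in endothelial-gated barcodes too, at 3.43% ± 1.3 and 2.33% ± 1.4. For DA1, DA2, LEW1 and LEW2, the Kupffer gate held only 10, 8, 6 and 13 Ramp1 UMIs at this depth. The endothelial gate held 46, 60, 34 and 19 barcodes with Calcrl, and without thinning its direction held in 3 of 4 rats. In hepatocyte-gated TLH barcodes Ramp1 was higher with Calcrl in 1 of 4 rats. In nuclei, Ramp1 was not higher with Calcrl in the Kupffer or the endothelial gate. There it was in only 0, 2, 1 and 1 Kupffer-gated and 0, 0, 0 and 1 endothelial-gated nuclei, too few to read a direction. In the immune-enriched mesenchymal gate, with 8 DA and 16 LEW barcodes, Ramp1 was in 2 of 4 with Calcrl for DA and in the 1 with Calcrl not at all for LEW. Mesenchymal-gated barcodes with Calcrl also held more of the mesenchymal markers, a mean of 8.21 against 7.11 in TLH and of 9.16 against 7.58 in nuclei, and nuclei with Calcrl held fewer hepatocyte markers in 4 of 4 rats, for example 8.57 against 10.4 in DA1 and 9.48 against 10.97 in LEW2. Endothelial-gated nuclei with Calcrl shifted the same way, at means of 11.1 against 9.65 endothelial and 8.88 against 9.77 hepatocyte markers. Markers were counted before thinning. Nuclei with Calcrl had lower median depths, 1215 against 1853.5 UMIs in the mesenchymal and 1220 against 1452.5 in the endothelial gate. The part of such markers and of depth in the shared detection was not tested.

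Ramp2 and Calcrl did not show this in endothelial-gated TLH barcodes or nuclei. Ramp2 was found in 4.35% of barcodes with Calcrl against 16.8% without in DA1, 18.3% against 16.5% in DA2, 32.4% against 34.4% in LEW1 and 26.3% against 27.5% in LEW2. The share was higher with Calcrl in 1 of 4 rats, with means of 20.3% ± 12.1 and 23.8% ± 8.7. Endothelial-gated nuclei were higher in 1 of 4 rats as well, at 26.0% ± 5.1 and 26.4% ± 8.5. In the immune-enriched libraries, Ramp2 was found in 53.7% against 51.4% for DA and in 68.8% against 50.7% for LEW. Without thinning these were 80.4% against 60% and 88.3% against 55.8%, with medians of 3373 and 4013 UMIs in barcodes with Calcrl and 1643 and 1835 in those without. Many Calcrl-bearing barcodes showed no RAMP at 1000 UMIs, 78.6% in the endothelial and 66.9% in the mesenchymal gate of TLH, 73.5% and 70.5% in nuclei, and 46.3% and 31.3% in the immune-enriched endothelial gate. With so few UMIs per barcode, a barcode without a RAMP UMI cannot be read as a cell without a RAMP.

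**Figure D3:**
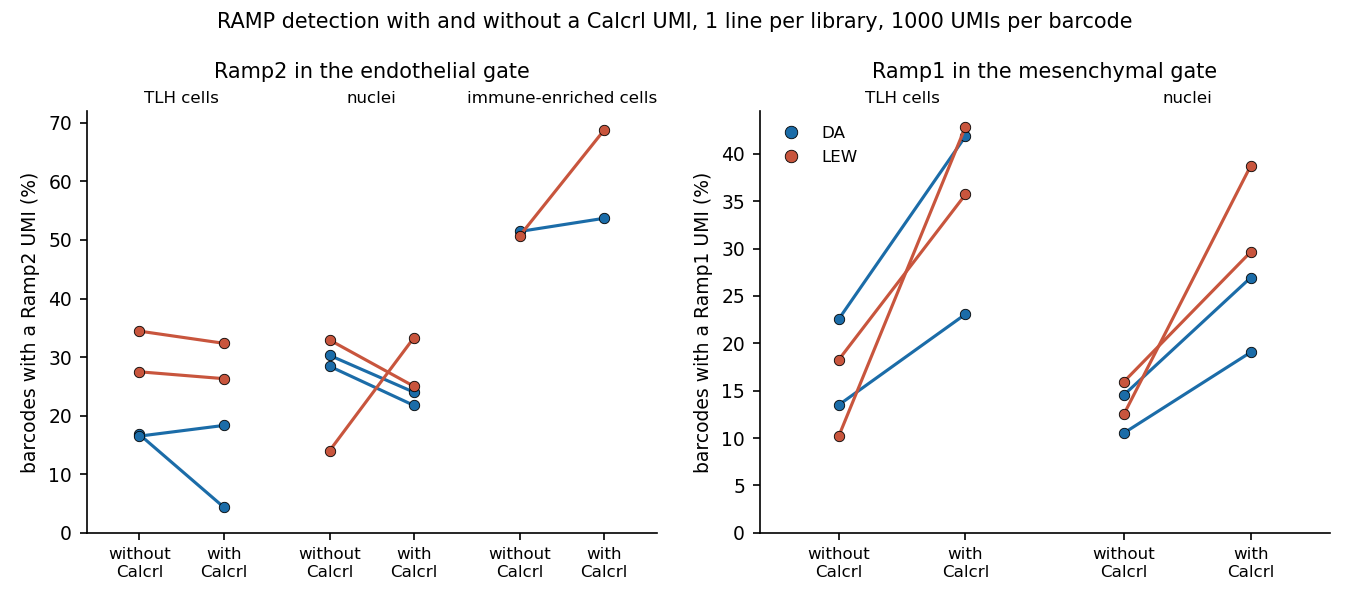
Share of barcodes with the RAMP of the class (y axis, percent, thinned to 1000 UMIs) among barcodes without and with a Calcrl UMI (x axis), for Ramp2 in the endothelial gate and Ramp1 in the mesenchymal gate. Each line joins the values of 1 library. All 8 mesenchymal lines of TLH and nuclei rise, while the endothelial lines of TLH and nuclei go both ways.

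Barcodes that met both the endothelial and the mesenchymal list, and no other list, numbered 270 in TLH, 69 in nuclei and 98 in the immune-enriched libraries. At 1000 UMIs, 17, 0 and 10 of them held both Ramp1 and Ramp2. Barcodes that met more than 1 list held 13.95% to 32.4% of the Calcrl UMIs of a TLH library and 13.95% to 23.8% of those of a nuclei library. In the immune-enriched libraries they held 40.5% in DA and 69.1% in LEW, so the levels there describe only part of the Calcrl measured.

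Within the endothelial gate, barcodes with Lyve1 held Calcrl and Ramp2 more often than those without. In nuclei, Calcrl was found in 34.5% of the 374 with Lyve1 and 11.04% of the 163 without, and Ramp2 in 33.4% and 9.82%. The direction was the same in 4 of 4 rats for both genes. The nuclei without Lyve1 had a median of 2841 UMIs against 1241 before thinning. In TLH the shares were 8.21% and 5.61% for Calcrl and 22.6% and 18.9% for Ramp2. In the mesenchymal gate, barcodes with Lrat or Reln, genes of stellate cells, had more of both Calcrl and Ramp1. The shares were 44.3% against 24.6% for Calcrl and 26.4% against 13.1% for Ramp1 in nuclei. In TLH they were 19.8% against 10.7% and 24.7% against 17.4%. Lrat and Reln are themselves markers of this gate, and these shares pool the rats of both strains. The part of depth and of hepatocyte RNA in them was not tested.

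The ligand, receptor and cAMP signalling genes around the members made a list of 49, of which 48 were measured. Among the 9 ligand and processing genes, Pam and Ece1 reached 5% of a main class in TLH, nuclei and immune-enriched libraries. Pam, the enzyme that amidates CGRP and adrenomedullin, was found in 24.5% of mesenchymal-gated TLH barcodes and 34.9% of nuclei, against 3.62% and 4.53% in the endothelial and 1.42% and 0.881% in the hepatocyte gate. Ece1, an endothelin-converting peptidase, was found in 13.2% and 43.5% of endothelial-gated and 11.4% and 31.0% of mesenchymal-gated barcodes of TLH and nuclei, with 5.36% and 17.4% in the hepatocyte gate.

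Of the 8 receptor and RAMP genes, 5 reached 5% in TLH and in nuclei and 4 in the immune-enriched libraries. Besides Calcrl, Ramp1 and Ramp2, these were Gpr182 throughout and Crcp, a component of CGRP receptor signalling, in TLH and nuclei. Gpr182, an atypical receptor of sinusoidal endothelium, was found in 21.3% of endothelial-gated TLH barcodes and 58.7% of nuclei, against 1.26% and 0.320% in the mesenchymal and 0.592% and 0.466% in the hepatocyte gate. Ackr3, a scavenger receptor that takes up adrenomedullin, stayed under 5% in every main class. Of the 10 measured receptors outside this system that have been reported to pair with RAMPs, 2 reached 5%. Pth1r, the parathyroid hormone receptor, was found in 27.0% of mesenchymal-gated TLH barcodes and 54.3% of nuclei and in 1.35% and 0.700% of endothelial-gated ones, with 1.06% and 0.312% in the hepatocyte gate. Gcgr, the glucagon receptor, was found in 7.44% and 27.0% of hepatocyte-gated barcodes. Of 21 genes of cAMP signalling, the pathway downstream of Calcrl, 3 reached 5% in TLH, 7 in nuclei and 6 in the immune-enriched libraries. In nuclei, Pde3a and Adcy5 were in 12.8% and 10.8% of the mesenchymal gate, and Adcy6 in 18.6% of the endothelial and 11.1% of the hepatocyte gate.

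The genes most like each member across classes were taken by the correlation of log2(CPM + 10) over 24 class sums of 4 libraries and 6 classes in TLH and 16 sums of 4 classes in nuclei. These points share libraries and depth, and the correlations are a description. For Ramp2 in TLH they were Col4a4 (r = 0.98), RGD1564664, Col13a1, Sox17 and Bcam, down to 0.96, and in nuclei Spns2, Rasip1, Tmem132e, Fam124a and Mef2c, from 0.99 to 0.98. For Ramp1 in nuclei they were Pth1r (0.99), Scarf2, Foxf1, Dagla and Tnfrsf11b, down to 0.97, and in TLH Gcnt2, Mmp23, Tgfbi, Cacfd1 and Col6a2, from 0.85 to 0.82. For Calcrl in TLH they were Tspan3 (0.90), Sparc, Ifitm3, Ccdc80 and App, down to 0.84, and in nuclei Tp53i11, Marcks, Eva1b, Sept11 and Fhod1, from 0.95 to 0.94. The lists of TLH and nuclei had no gene in common for any member.

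The strains were compared on the UMI sums of each rat and gate, with 2 rats against 2, by the quasi-likelihood test of edgeR with Benjamini-Hochberg adjustment over all genes tested. The labels name the samples of a strain as separate rats, and p-values measure the spread between these rats only. Ramp2 was higher in LEW in endothelial-gated TLH barcodes. Its level was 179 and 198 CPM in the DA rats and 391 and 346 CPM in the LEW rats, from 206, 438, 442 and 196 UMIs, and the strains did not overlap. The log2 difference LEW minus DA was 0.89 (SE 0.17, 95% interval 0.54 to 1.24), with an edgeR adjusted p of 0.0062. Without LEW1 the adjusted p was 0.080 and the log2 difference 0.85, and without LEW2 they were 0.098 and 0.92, while the call held without either DA rat. In these fits the lone LEW rat is assumed to vary like the DA rats, and the size of the difference changed little. Of the 3 members tested in this gate 1 passed, against 3.67% of the 6895 genes tested.

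Other values moved with this difference. The 19 endothelial markers summed to 0.465% and 0.500% of UMIs in DA against 0.571% and 0.518% in LEW. Single genes of that list were higher in LEW too. Fcgr2b, an Fc receptor of sinusoidal endothelium, was at 540 and 577 CPM in DA and 851 and 910 in LEW. Bmp2, a signal from sinusoidal endothelium to hepatocytes, was at 393 and 485 against 608 and 601, Fam167b at 597 and 480 against 810 and 779, and Tek, the angiopoietin receptor, at 67.8 and 76.4 against 133 and 103. Aqp1, a water channel, went the other way, at 298 and 385 in DA and 203 and 147 in LEW, while Lyve1, at 1041 and 1123 against 1074 and 900, and Kdr, at 469 and 582 against 559 and 465, overlapped. These genes were chosen after their values were seen. The hepatocyte markers summed to 8.89% and 10.4% in DA and 8.53% and 9.30% in LEW, and the mesenchymal markers, higher in LEW without overlap, to 0.0860% and 0.102% against 0.107% and 0.122%. The part of these, and of age, in the Ramp2 difference was not tested.

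Nuclei did not show it. Ramp2 in endothelial-gated nuclei was at 197 and 195 CPM in DA and at 238 and 142 CPM in LEW, which overlapped, with a log2 difference of −0.06 (SE 0.35, 95% interval −0.80 to 0.69) and an edgeR adjusted p of 0.99. The endothelial markers of these nuclei summed to 1.13% and 1.57% of UMIs in DA and to 1.04% and 0.769% in LEW. That order was opposite to the order in TLH. Lyve1, whose UMIs are part of that sum, was at 2262 and 2302 CPM in DA and 1073 and 768 CPM in LEW. Bmp2, at 1010 and 1098 against 801 and 744, and Aqp1, at 710 and 1052 against 464 and 202, were lower in LEW too. Kdr, at 1501 and 2212 against 1640 and 1256, and Fcgr2b, at 1004 and 1672 against 1207 and 835, overlapped. These genes were chosen after their values were seen. Their part in the Ramp2 level was not tested. The strain difference in nuclei less that in TLH was −0.96 (SE 0.39, 95% interval −1.78 to −0.14), with an unadjusted p of 0.024 and an edgeR adjusted p of 0.49, so the adjusted test does not show that TLH and nuclei differ. That test called 5 of 7240 genes, or 0.0691%, and 657 had an unadjusted p under 0.05. With 1 immune-enriched library a strain there is no test, and Ramp2 was at 770 CPM (Poisson interval 709 to 835) in DA and 666 CPM (625 to 708) in LEW, the order opposite to that of the TLH rats. In that gate the endothelial markers summed to 1.66% of UMIs in DA and 1.26% in LEW, the hepatocyte markers to 2.32% and 6.12%, and the median mitochondrial share was 26.3% and 10.4%, whose part was not tested.

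Calcrl and Ramp1 passed in no gate. Calcrl was at 73.9 and 79.1 CPM in DA and 83.1 and 86.6 CPM in LEW in endothelial-gated TLH barcodes, a log2 difference of 0.06 (95% interval −0.37 to 0.49, edgeR adjusted p 0.93), so the strains did not overlap but the difference did not pass. In mesenchymal-gated TLH barcodes it was at 113 and 131 CPM in DA and 111 and 108 CPM in LEW, a log2 difference of −0.13 (−0.66 to 0.41, edgeR adjusted p 0.90). These intervals leave room for a change of up to 0.49 and 0.66 on the log2 scale. Ramp1 was at 278 and 166 CPM in DA and at 255 and 233 CPM in LEW in mesenchymal-gated barcodes, a log2 difference of 0.20 (−0.34 to 0.73, edgeR adjusted p 0.83). In endothelial-gated barcodes its log2 difference was 0.47 (−0.58 to 1.52, edgeR adjusted p 0.67). The strains overlapped for Ramp1 in both gates.

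In nuclei the log2 differences of Calcrl were 0.21 (−0.55 to 0.98, edgeR adjusted p 0.96) in the endothelial and 0.11 (−0.67 to 0.89, edgeR adjusted p 0.95) in the mesenchymal gate, and that of Ramp1 in the mesenchymal gate was −0.10 (−0.86 to 0.65, edgeR adjusted p 0.95). Of the members tested, 0 of 2 passed in mesenchymal-gated TLH barcodes, 0 of 2 in endothelial-gated nuclei and 0 of 2 in mesenchymal-gated nuclei, where 1.61%, 0.548% and 1.47% of all genes did. Of the 18, 11, 13 and 14 pathway genes tested in the 4 contrasts, Ramp2 in endothelial-gated TLH barcodes was the 1 that passed. Pam was lower in LEW in value in the mesenchymal gate of both TLH and nuclei, by a log2 difference of −0.67 (edgeR adjusted p 0.25) and −1.04 (edgeR adjusted p 0.16), without passing. The mesenchymal markers given beside Adm were lower in LEW too, Pth1r was found in 34.8% and 35.6% of TLH mesenchymal barcodes in DA and 16.9% and 20.5% in LEW, and the hepatocyte markers of the mesenchymal-gated nuclei summed to 6.10% and 4.53% in DA and 7.08% and 7.13% in LEW. Their part was not tested.

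**Figure D4:**
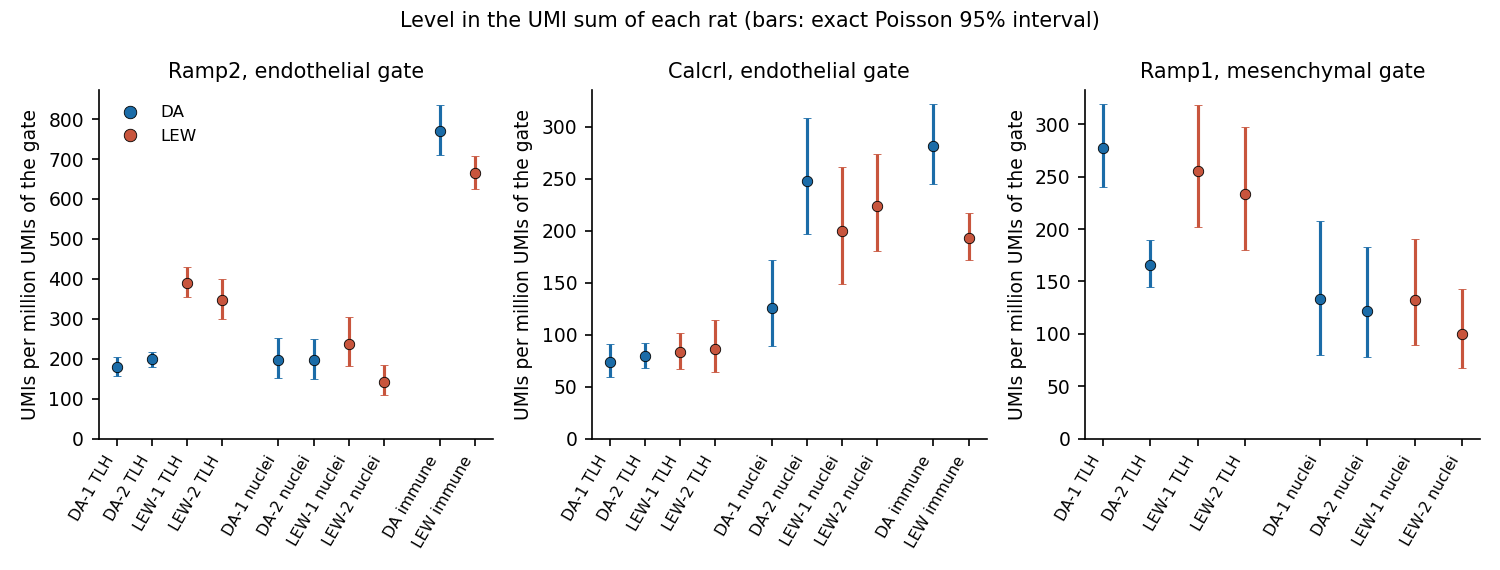
Level in CPM (y axis) of Ramp2 and Calcrl in the endothelial gate and of Ramp1 in the mesenchymal gate for each rat (x axis), with exact 95% Poisson intervals of the UMI sum. In TLH the LEW rats, at 391 and 346 CPM of Ramp2, sit above the DA rats at 179 and 198, while no other tested contrast shown passed, and the immune-enriched libraries were not tested.

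On the Visium sections of Wistar liver, the members were read per spot at 5000 UMIs, on 2260 spots of section A and 2196 of section B. A spot covers several cells, and fewer cells of a type and less RNA per cell cannot be told apart. Calcrl had a UMI in 7.92% of the spots of A and 9.34% of those of B, Ramp1 in 10.4% and 10.2%, and Ramp2 in 6.64% and 6.92%. Adm was found in 0.752% and 0.592%, and Ramp3 in 1 spot of each section.

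Spots were ranked by pericentral genes (Cyp2e1, Oat, Sult1e1, Glul) against periportal genes (Ass1, Arg1, Gls2, Tf) and cut into 3 groups of equal size. Calcrl was found in 7.03%, 8.50% and 8.23% of periportal, middle and pericentral spots of A and in 8.61%, 11.2% and 8.20% of B. The difference of pericentral less periportal spots was 1.205 percentage points in A and −0.41 in B, so the sections went opposite ways. They did so for Ramp1 as well, at −0.39 and 3.42, and for Ramp2, at 0.41 and −0.27. Pth1r, the gene most like Ramp1 in nuclei, went from 15.1% to 19.9% in A and from 16.4% to 18.2% in B. None of the 3 members thus showed the same direction along the lobule in both sections. This depended on the setting. Without thinning, the differences were −0.63 and −2.46 for Calcrl, 1.63 and 4.92 for Ramp1 and 1.35 and 1.37 for Ramp2, and with spots ranked by Cyp2e1 against Ass1 alone those of Calcrl were 1.47 and 2.60.

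**Figure D5:**
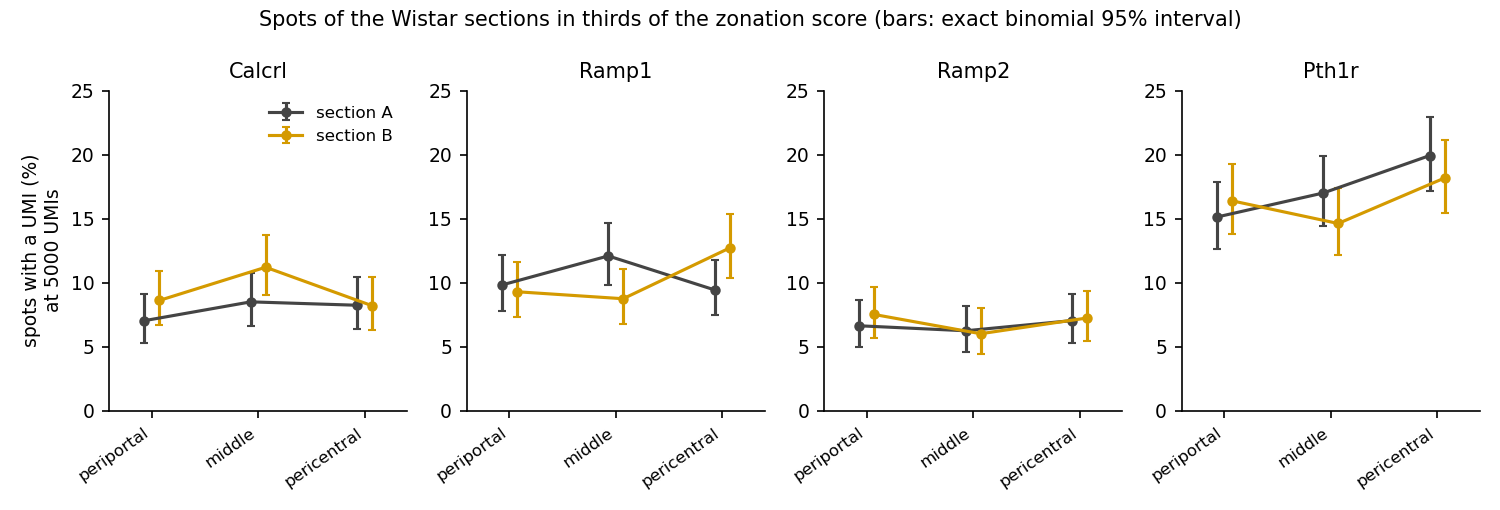
Share of Visium spots with a UMI of Calcrl, Ramp1, Ramp2 and Pth1r (y axis, percent, thinned to 5000 UMIs) in periportal, middle and pericentral spots (x axis) of sections A and B, with exact 95% binomial intervals. The intervals of periportal and pericentral spots overlap for Calcrl, Ramp1 and Ramp2 in both sections.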

How the data were processed

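The authors aligned reads of 10x Genomics 3′ libraries (version 2 for TLH, version 3 for immune-enriched cells and nuclei) and Visium sections to the rat genome (custom Rattus_norvegicus 6.0.98), with Cell Ranger 3.1.0 and Space Ranger 1.1.0 per the submitters' processing notes, and deposited UMI counts of the barcodes called as cells, without normalization and before the study's own limits on UMIs and mitochondrial share. Libraries held 8039397 to 92484173 UMIs. The TLH and immune-enriched tables carry no gene names, and each row was given the name at its place in the nuclei list, which has the same 32883 rows.

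From these counts, barcodes were kept at 1500 UMIs and 30% mitochondrial share (TLH DA1), 2000 and 20% (DA2), 2000 and 40% (both LEW), 1000 and 50% (immune-enriched) and 1000 and 10% (nuclei), which left 6623, 7112, 5457 and 3844 TLH, 1163 and 2677 immune-enriched and 2205, 2557, 5262 and 2501 nuclei barcodes. The study states 1500 UMIs for LEW, which was an alternative. Nuclei libraries shared 1 to 6 barcodes a pair. Spots needed 5000 UMIs. Doublets were not called, and barcodes that met more than 1 marker list were left out. Other gates were at least 3 of 11 markers (other myeloid), 2 of 10 (T), 3 of 10 (NK) and 3 of 9 (B). The hepatocyte gate took at least 8 of 12 markers with at most 1 of another list and 2 mesenchymal ones. Thinning drew 1000 UMIs per barcode with seed 20. A count of 0 is given with a limit of 3 counts.

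Strains were compared with edgeR 4.0.16 in R 4.3.3 (glmQLFit and glmQLFTest, TMM, default filter on low counts, 0.05 after Benjamini-Hochberg adjustment). On data simulated with genes changed by 2 on the log2 scale, these steps recovered 83% in endothelial-gated and 80% in mesenchymal-gated TLH. In nuclei they recovered 86% and 77.5%, and the false calls were 1, 4, 12 and 2 in this order. With no gene changed, false calls were 0, 4, 0 and 0. Smaller changes, such as those of the members, were not simulated. Same-numbered rats did not deviate together (correlations of −0.11 and −0.21 in TLH, 0.042 and 0.039 in nuclei), so the numbers were not taken as pairs. Other steps used Python 3.11.15, numpy 2.4.6, scipy 1.17.1 and pandas 2.3.3.

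The members, marker lists and pathway lists were chosen with earlier results of these data known. Named genes were all members, pathway genes that reached 5% of a main class (1 is not reported here), and the 5 genes most like each member. Alternatives were other thinning depths, gates, size factors, filters and tests, each rat left out, a replicate block, and another section score. The study itself used Calcrl and Ramp2 to name endothelial clusters, which was not done here.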

Additional observations from a re-analysis of the deposited data

How the results depend on the processing

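At 2000 UMIs and without thinning, Calcrl in TLH was at 13.1% and 15.97% of endothelial, 17.8% and 21.3% of mesenchymal and 7.52% and 10.9% of Kupffer barcodes, Ramp1 at 27.9% and 32.7% of mesenchymal and Ramp2 at 37.9% and 43.9% of endothelial ones, and Adm unthinned at 1.82% of mesenchymal ones. In nuclei, Calcrl was at 16.7% and 36.2% of endothelial and 20.8% and 45.5% of mesenchymal, Ramp1 at 9.69% and 25.3% of mesenchymal and Ramp2 at 16.6% and 34.3% of endothelial ones. In the immune-enriched libraries, Calcrl was at 47.8% and 53.5% and Ramp2 at 78.9% and 71.9% of endothelial, and Ramp1 at 41.3% and 61.7% of T and 39.3% and 49.9% of other myeloid barcodes. Calcrl in the few mesenchymal ones, 50% in DA and 6.25% in LEW at 1000 UMIs, was at 42.9% and 14.3% at 2000 UMIs and 62.5% and 12.5% unthinned, on average below the endothelial share in place of above it. A stricter gate gave Calcrl in 16.2% and Ramp1 in 24.9% of TLH mesenchymal barcodes and Calcrl in 39.5% of mesenchymal nuclei. With barcodes of several lists placed in one, Calcrl was at 12.9% of mesenchymal and 5.71% of Kupffer TLH barcodes, and Ramp1 at 2.63% and 5.03% of immune-enriched endothelial ones. Ramp2 gave 97.6% of unthinned endothelial RAMP UMIs in nuclei. Among Calcrl-bearing barcodes, Ramp2 was in 38.1% and 45.9% of TLH endothelial and, unthinned, 33.4% of endothelial nuclei, and Ramp1 in 53.2% and 55.7% of TLH mesenchymal barcodes.

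Genes called between strains numbered 253, 70, 29 and 54 in TLH endothelial, TLH mesenchymal, nuclei endothelial and nuclei mesenchymal gates. They were 481, 126, 118 and 131 without the filter on low counts, 150, 111, 76 and 75 with the replicate block, 101, 36, 22 and 27 with DESeq2 1.42.0, 80 to 498, 1 to 132, 36 to 164 and 63 to 126 with 1 rat left out, 391 in TLH endothelial with the stated LEW limit, and 37 in TLH mesenchymal and 33 in nuclei mesenchymal with a stricter gate. A crossed block, added after seeing the data, gave 303, 206, 4 and 61. Ramp2 kept its call with the replicate block (log2 difference 0.89, edgeR adjusted p 0.031), with DESeq2 (adjusted p 0.020) and without either DA rat, and lost it without LEW1 (0.85) and without LEW2 (0.92). The 5 genes most like Calcrl, Ramp1 and Ramp2 kept 3, 3 and 3 names in TLH and 3, 1 and 1 in nuclei with 1 CPM added. In the sections, the mean pericentral difference of Calcrl was 0.40 percentage points as reported, −1.55 unthinned and 2.03 with a score of Cyp2e1 against Ass1, and that of Ramp2 1.36 unthinned. The cause of each was not tested.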
